A study of Schizosaccharomyces pombe with 72 samples.

Results

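hrp3Δ and hrp1Δ cells of the fission yeast Schizosaccharomyces pombe were compared directly, to ask which transcripts depend on the CHD remodeler Hrp3 and which on its paralog Hrp1. The comparison takes the 6 libraries labelled hrp3Δ (3) and hrp1Δ (3) of the experiment on CHD mutants (experiment B), of 72 libraries in the series, which otherwise covers deletions of other remodelers, exchanged C-terminal regions and Prf1 mutants. Every strain is haploid of mating type h+ and carries ade6-M216 ura4-D18 leu1-32. hrp1Δ (strain YJY_026) has hrp1 replaced by kanMX, hrp3Δ (YJY_027) has hrp3 replaced by kanMX, the WT strain (YZH_001) has neither deletion, and the hrp1Δhrp3Δ strain (YJY_061) carries hrp1del::kanMX with an hrp3 deletion labelled without kanMX. Cells were grown without treatment at 32 °C to an OD600 of about 0.5. The paper names EMM2 minimal and YES rich medium for its cultures, and its RNA methods do not say which was used here. Each genotype is 1 strain. The study describes such libraries as biological replicates, the labels do not say whether the 3 of a strain came from separate cultures, and the p-values measure the spread between these libraries. A repeat of both deletions, with the same strain codes, comes from batch 1 of the experiment on single remodeler deletions (experiment A-b1).

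Chd1-type remodelers use ATP to slide and space nucleosomes over transcribed genes, and they travel with elongating RNA polymerase II. Where nucleosome spacing inside a gene is disturbed, cryptic promoters can open and RNA can start within the gene, also on the strand opposite to the mRNA. Fission yeast has no ISWI remodeler and has Hrp1 and Hrp3 as its Chd1-type paralogs. Hrp1 is also known as an assembly factor for the centromeric histone CENP-A.

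Polyadenylated RNA was sequenced by strand. Each transcript has a sense entry and a reverse complement entry, so that RNA from the opposite strand of a protein-coding gene, called antisense here, has its own estimated count. Annotated non-coding RNAs have entries as well, and 64.0% of those tested overlap a protein-coding gene on the opposite strand. Of 5112 protein-coding genes, 955 have no annotated gene on the other strand. Elsewhere reads may be divided between overlapping entries, so an antisense value need not hold all antisense RNA of a gene. The 6 libraries held 7222000 to 10010000 estimated counts each, so depth was similar, and the fitted biological coefficient of variation was 0.118. Levels are given as CPM (counts scaled to library size, without TMM factors). The fits behind the fold changes used TMM factors from protein-coding sense entries. Fold changes are hrp3Δ over hrp1Δ on the log2 scale, given with their standard error and an edgeR quasi-likelihood p adjusted over all features tested, with a call at an adjusted p under 0.05 and n = 3 libraries a group. Levels of different genes are not compared with each other, since CPM is not scaled for length.

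The deleted genes were checked first. hrp1 sense RNA was at 50.2, 61.7 and 51.6 in hrp3Δ against 8.87, 9.99 and 10.2 in hrp1Δ, with 53.6, 51.6 and 48.1 in WT and 11.7, 9.55 and 9.58 in the double mutant (log2 fold change 2.47 ± 0.12, adjusted p = 2.2e-09). hrp3 sense RNA was at 23.6, 26.0 and 26.3 in hrp3Δ against 61.1, 63.0 and 67.4 in hrp1Δ, with 53.6, 60.4 and 53.4 in WT and 0, 0 and 0 in the double mutant (-1.35 ± 0.09, adjusted p = 4.04e-07). Each deleted gene was thus lower in its own strain than in WT, but neither was at 0 in its single deletion, whereas hrp3 was at 0 in the hrp1Δhrp3Δ libraries. The ura4 mRNA was at 0 in all 12 libraries of experiment B. Antisense RNA over hrp3 was at 38.2, 29.1 and 37.2 in hrp3Δ against 1.30, 2.10 and 1.89 in hrp1Δ, with 0.539, 1.42 and 0.899 in WT and 0, 0 and 0 in the double mutant, so the strain with kanMX at hrp3 held hrp3 antisense RNA that the double mutant lacked. The antisense entry of hrp1 was higher in hrp1Δ (11.0, 12.2 and 16.4) than in hrp3Δ (6.08, 4.07 and 5.73, -1.34 ± 0.25, adjusted p = 0.00102), and it was at 19.9, 17.7 and 16.8 in the double mutant. RNA from this strand is also counted under SPNCRNA.803, a non-coding RNA annotated opposite hrp1. That entry went the other way, at 74.6, 66.1 and 71.4 in hrp3Δ and 0, 0 and 0 in hrp1Δ. The hrp1 entry alone therefore does not give the direction of all antisense RNA over hrp1.

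The neighbours of the deleted genes carried strand-specific differences as well. Antisense RNA of prp40, which encodes a U1 snRNP protein and lies next to hrp3, was at 54.4, 41.5 and 52.5 in hrp3Δ against 1.06, 1.30 and 1.48 in hrp1Δ, with 0.539, 1.53 and 0.337 in WT and 4.26, 4.57 and 4.26 in the double mutant (5.24 ± 0.25, adjusted p = 2.2e-09). It was thus high in hrp3Δ and low in the double mutant, which lacks Hrp3 too but has another hrp3 allele, so for prp40 the allele and the loss of Hrp3 cannot be told apart. ifs1, another neighbour of hrp3 that encodes a Maf-like protein, was lower in hrp3Δ in sense (97.7, 85.9 and 93.0 against 132, 136 and 131 in hrp1Δ, -0.55 ± 0.08, adjusted p = 7.64e-05) and higher in antisense (2.13 ± 0.40, adjusted p = 0.000929). atg12, an autophagy gene beside hrp1, is overlapped on the opposite strand by the annotated span of hrp1 itself. Its sense RNA was at 5.28, 7.11 and 8.12 in hrp3Δ against 2.78, 1.99 and 1.42 in hrp1Δ, with 5.28, 8.23 and 7.91 in WT and 2.19, 2.83 and 3.33 in the double mutant (1.67 ± 0.31, adjusted p = 0.000781), low in both strains with hrp1del::kanMX. SPNCRNA.803, a non-coding RNA annotated over hrp1 on the opposite strand, had no count in the hrp1Δ and hrp1Δhrp3Δ libraries, both of strains that lack hrp1, and was at 74.6, 66.1 and 71.4 in hrp3Δ against 2.82, 8.22 and 4.21 in WT. Against a floor of 3 counts over the group, that is at least 610-fold higher in hrp3Δ than in hrp1Δ.

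Antisense RNA took a larger share of each hrp3Δ library than of any hrp1Δ library. The share of counts in antisense entries of protein-coding genes was 2.246%, 1.993% and 2.137% in hrp3Δ (2.13% ± 0.127, SD, n = 3) and 1.407%, 1.414% and 1.480% in hrp1Δ (1.43% ± 0.0403, SD, n = 3), with 1.06% ± 0.0822 in WT and 2.79% ± 0.0347 in the double mutant. The groups did not overlap, and hrp3Δ was above hrp1Δ by 0.692 percentage points, a ratio of 1.48 (exact two-sided permutation p = 0.1, the smallest that 3 against 3 allows). Over genes with no annotated gene on the other strand the ratio was 1.505, at 0.260% ± 0.0193 against 0.173% ± 0.00857, and the exact permutation p was again 0.1. Annotated non-coding entries held 2.44% ± 0.0850 of counts in hrp3Δ and 2.20% ± 0.142 in hrp1Δ, a smaller difference of 0.233 points. In bulk cultures, more cells with a transcript and more transcript per cell cannot be told apart.

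**Figure D1:**
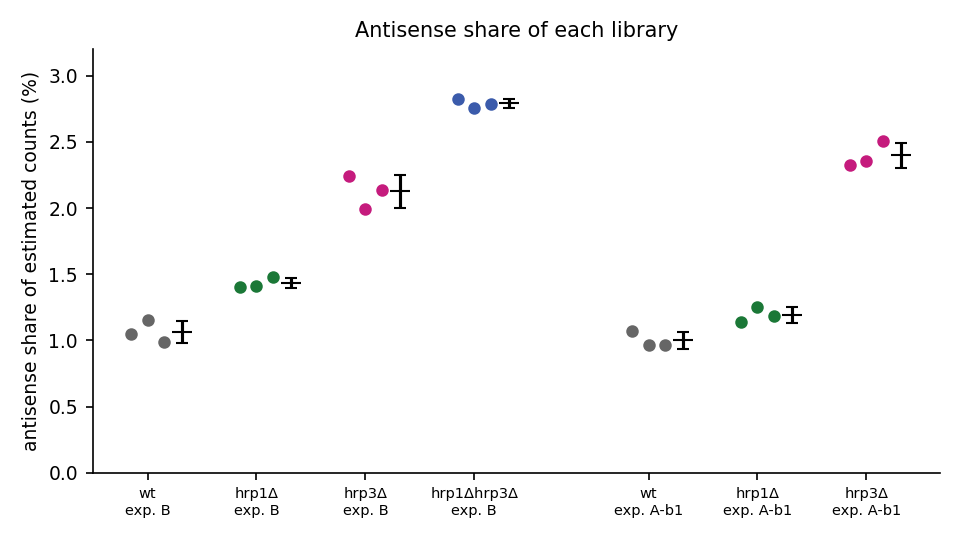
Share of each library's estimated counts in antisense entries of protein-coding genes, in percent, for the groups of experiment B and of experiment A-b1; each point is a library and the bars mark the mean and SD of 3. In both experiments every library labelled hrp3Δ lies above every hrp1Δ library, by a ratio of means of 1.48 in experiment B and 2.01 in experiment A-b1.

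Antisense features that differed between the paralog deletions were mostly higher in hrp3Δ. Of 3306 antisense entries tested, 1283 (38.8%) were higher and 126 (3.81%) were lower in hrp3Δ than in hrp1Δ, and the median log2 fold change over all tested was 0.73. The 1283 make up 25.1% of the 5112 protein-coding genes, the other genes including 1806 whose antisense entries had too few reads to be tested. In 1263 of the 1283 the groups of libraries did not overlap, beside at least 1487 of all 3306 tested. That total leaves out uncalled entries that were higher in hrp3Δ. A call at n = 3 favours such a gap, so the gap is no separate support. An absolute log2 fold change above 1 was found in 1116 of the 1283, beside 1523 (46.1%) of all tested. The filter on low counts saw all groups, and an entry that passed it through hrp3Δ alone had to differ, so shares of tested entries are given with shares of all genes beside them. With the hrp1Δ and hrp3Δ libraries alone, 2593 entries were tested, of which 1116 were higher and 123 lower.

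The 2 directions related differently to WT, in contrasts that share libraries with the direct one and so are given as values only. The 1283 features had a median of 0.771 CPM in WT, 1.21 in hrp1Δ, 4.90 in hrp3Δ and 7.04 in hrp1Δhrp3Δ. Against WT, 1192 of them were higher in hrp3Δ, 211 were higher and 23 lower in hrp1Δ, and 1208 were higher in the double mutant. Over all 3306 entries tested, 1766 were higher than WT in hrp3Δ, 486 were higher and 31 lower in hrp1Δ, and 2360 were higher in the double mutant. The 126 features of the other direction had medians of 3.70 CPM in WT, 7.93 in hrp1Δ, 3.52 in hrp3Δ and 6.11 in hrp1Δhrp3Δ. Of these, 67 were higher and 1 lower than WT in hrp1Δ, while 10 were higher and 20 lower than WT in hrp3Δ. In the larger set most features were thus above WT in hrp3Δ, and in the smaller one 67 of 126 were above WT in hrp1Δ, where the median log2 change from WT was 0.765.

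**Figure D2:**
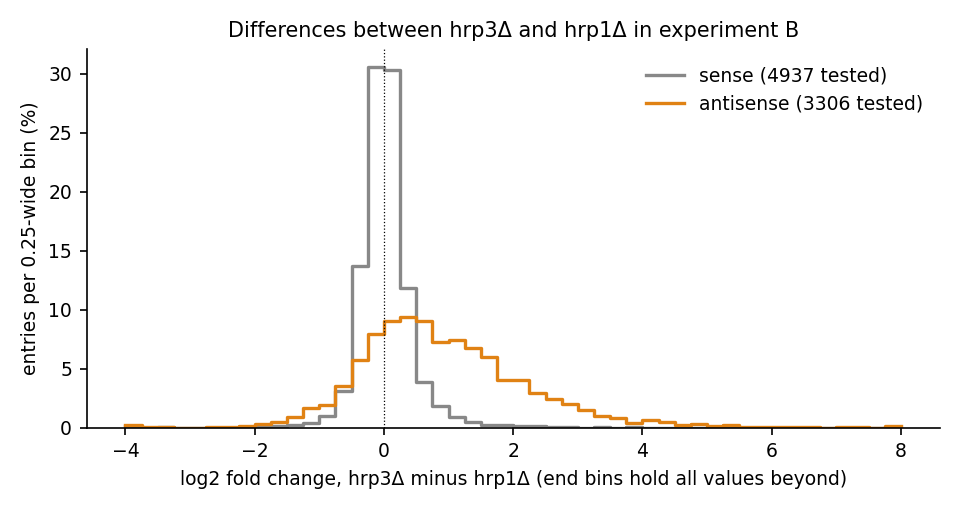
Distribution of log2 fold changes, hrp3Δ over hrp1Δ in experiment B, as the percentage of tested entries in each bin, with the end bins holding all values beyond, for sense (4937) and antisense (3306) entries of protein-coding genes. Sense changes centre on 0 (median 0.004) and antisense changes lie to the right of 0 (median 0.73).

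Among the antisense features with the largest differences, several were close to 0 in both WT and hrp1Δ. Antisense RNA of sea4, which encodes a subunit of the SEACAT complex that acts on TORC1 signalling, was at 97.4, 89.0 and 106 in hrp3Δ against 0.828, 0.599 and 0.135 in hrp1Δ, with 0.539, 0.546 and 0.337 in WT and 82.1, 82.6 and 84.3 in the double mutant (7.43 ± 0.19, adjusted p = 2.18e-12). hrp3Δ and the double mutant were high and did not overlap with the others, while the sea4 mRNA was at 96.4, 96.1 and 106 in hrp3Δ and 102, 99.6 and 106 in hrp1Δ (-0.07 ± 0.07, adjusted p = 0.48). Antisense RNA of bir1, the survivin of the chromosomal passenger complex, was at 50.6, 50.1 and 44.6 in hrp3Δ against 0.591, 1.20 and 1.89 in hrp1Δ, with 2.69, 2.84 and 2.70 in WT and 68.4, 49.1 and 52.9 in the double mutant (5.29 ± 0.22, adjusted p = 4.22e-10). utp4, whose product processes ribosomal RNA, had no antisense count after rounding in the 3 hrp1Δ libraries and 19.4, 13.9 and 19.2 CPM in hrp3Δ (adjusted p = 5.93e-06). The hrp1Δ values were small fractions of a read, which kallisto can give where entries share sequence, so no fold bound is set. Whether the utp4 antisense entry shares reads with another was not tested. The utp4 mRNA was lower in hrp3Δ, at 98.3, 94.1 and 95.4 against 121, 118 and 128 (-0.37 ± 0.07, adjusted p = 0.00082).

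Other features were at still higher levels when both paralogs were deleted. Antisense RNA of cnt6, a GTPase-activating protein for ARF, was at 15.97, 15.6 and 13.3 in hrp3Δ against 0, 0.599 and 0.809 in hrp1Δ, with 0.269, 0.765 and 0.674 in WT and 30.3, 37.2 and 38.3 in the double mutant (4.95 ± 0.38, adjusted p = 2.34e-07). Antisense RNA of omh1, a Golgi mannosyltransferase gene, was at 13.0, 11.7 and 11.1 in hrp3Δ against 0.355, 0.2 and 0.135 in hrp1Δ, with 0, 0.109 and 0.225 in WT and 24.7, 33.2 and 32.4 in the double mutant (5.57 ± 0.34, adjusted p = 2.8e-08). In both, the hrp1Δ libraries lay within or close to the WT range and the double mutant was above hrp3Δ in every library. Antisense RNA of mbx2, a MADS-box transcription factor gene, had another pattern, at 11.96, 4.74 and 13.6 in hrp3Δ against 0.68, 0 and 0 in hrp1Δ, with 8.11, 6.82 and 13.3 in WT and 4.23, 5.32 and 13.9 in the double mutant (5.32 ± 0.82, adjusted p = 0.000186): hrp1Δ was low and the other groups overlapped, and no mbx2 sense count was found in any library. The fitted change of mbx2 rests on hrp1Δ replicate 1, the single hrp1Δ library with counts, and was 9.33 without it and 4.67 without hrp1Δ replicate 2.

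The 6 genes for which the study followed antisense RNA, chosen by it on such samples, were all higher in hrp3Δ than in hrp1Δ, with a median log2 fold change of 2.83. Antisense RNA of orc4, an origin recognition subunit, was at 88.1, 86.8 and 88.5 in hrp3Δ against 3.43, 3.196 and 2.70 in hrp1Δ, with 2.83, 2.95 and 1.24 in WT and 90.0, 79.7 and 94.4 in the double mutant (4.78 ± 0.15, adjusted p = 1.34e-11). taf5, a TFIID subunit, was at 0.591, 0.999 and 0.674 in hrp1Δ and 27.4, 24.4 and 21.5 in hrp3Δ, and atg9, an autophagy gene, at 3.90, 2.10 and 3.64 in hrp1Δ and 39.7, 36.1 and 42.8 in hrp3Δ. In orc4, taf5 and atg9 every hrp1Δ library lay far below every hrp3Δ library. rap1, which encodes a telomere protein, was at 3.47, 4.54 and 2.77 in hrp3Δ against 1.66, 0.799 and 0.944 in hrp1Δ, with 0.269, 0.328 and 0.112 in WT and 19.6, 21.6 and 22.5 in the double mutant (1.65 ± 0.31, adjusted p = 0.000946). spb70, a DNA polymerase alpha subunit, was at 10.9, 10.3 and 10.1 in hrp3Δ against 1.66, 2.40 and 3.50 in hrp1Δ, with 0.135, 0.546 and 0.787 in WT and 24.7, 27.5 and 24.5 in the double mutant (2.04 ± 0.26, adjusted p = 3.8e-05). In rap1 and spb70 each single deletion was above WT in every library and the double mutant was above both. crt10 antisense RNA was at 0.355, 0.747 and 0.237 in hrp1Δ and 1.84, 1.39 and 2.51 in hrp3Δ (1.99 ± 0.49, adjusted p = 0.00644).

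Features higher in hrp1Δ were fewer and differed less. Antisense RNA of orc3, another origin recognition subunit gene, was at 1.16, 2.82 and 4.43 in hrp3Δ against 10.2, 9.89 and 12.9 in hrp1Δ, with 1.75, 2.62 and 2.58 in WT and 10.8, 9.82 and 11.2 in the double mutant (-2.01 ± 0.33, adjusted p = 0.000298). Both strains without Hrp1 were high and hrp3Δ overlapped with WT, whereas orc4 was high in both strains without Hrp3. Antisense RNA of sld3, a replication initiation gene, was at 6.25, 8.10 and 8.31 in hrp3Δ against 13.6, 18.2 and 21.0 in hrp1Δ, with 10.5, 10.7 and 10.8 in WT and 8.39, 8.30 and 8.87 in the double mutant (-1.24 ± 0.18, adjusted p = 0.000127). That of cwg2, a protein prenylation gene overlapped by another coding gene, was at 4.40, 3.93 and 3.6 in hrp3Δ against 10.4, 13.3 and 12.5 in hrp1Δ, with 5.25, 6.01 and 6.41 in WT and 4.64, 4.57 and 4.14 in the double mutant (-1.62 ± 0.20, adjusted p = 2.54e-05). In sld3 and cwg2, hrp1Δ was above WT while hrp3Δ and the double mutant were below it, so the higher level without Hrp1 was not seen where Hrp3 was missing too. pos5, an NADH kinase gene, was at 4.97, 11.3 and 11.9 in hrp1Δ and 4.28, 2.58 and 4.01 in hrp3Δ (-1.39 ± 0.31, adjusted p = 0.00342).

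Many of the 126 lie opposite another protein-coding gene. 40.5% of them were overlapped by a protein-coding gene on the opposite strand, counted over its whole annotated span. This compares with 19.5% of all antisense entries tested and 11.7% of the 1283 in the other direction. Where a gene overlaps, the reads cannot be told apart from the mRNA of the other gene. apl1, an AP-2 adaptor gene, is overlapped by rpl1603, which encodes a ribosomal protein. apl1 antisense RNA was at 86.7, 94.9 and 97.0 in hrp1Δ and 38.2, 37.9 and 39.6 in hrp3Δ (-1.29 ± 0.10, adjusted p = 2.23e-07), and rpl1603 mRNA at 116, 123 and 138 in hrp1Δ and 56.6, 55.4 and 52.3 in hrp3Δ (-1.22 ± 0.13, adjusted p = 7.44e-06). The antisense entry of rec15, a meiotic recombination gene, likewise overlaps another coding gene and was at 13.0, 12.3 and 21.0 in hrp1Δ and 5.56, 3.56 and 7.62 in hrp3Δ (-1.49 ± 0.25, adjusted p = 0.000445). Among genes with no annotated gene on the other strand, 455 antisense entries were tested, of which 145 (31.9%) were higher and 25 (5.5%) lower in hrp3Δ.

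Antisense RNA higher in hrp3Δ was found most often over long genes. In 4 bins of 1278 genes by coding length, antisense RNA was higher in hrp3Δ for 5.9% of the shortest genes (78 to 675 bases), 17.1% and 27.4% of the middle bins, and 49.9% of the longest (1755 to 14780 bases). Features lower in hrp3Δ did not follow length in this way, at 1.5%, 3.0%, 2.7% and 2.7%. More antisense entries of long genes were deep enough to be tested, and of those tested the higher ones made up 14.3%, 27.5%, 38.6% and 59.6%. Per kilobase and without a filter, summed antisense RNA was at 4.16 ± 0.163 CPM per kb in hrp1Δ and 4.86 ± 0.318 in hrp3Δ over the shortest genes (SD, n = 3), and at 1.42 ± 0.0307 and 2.54 ± 0.155 over the longest. The ratio of hrp3Δ to hrp1Δ was thus 1.17, 1.31, 1.39 and 1.79 from the shortest to the longest bin. In genes not overlapped by a protein-coding gene on the opposite strand it was 1.27, 1.55, 1.73 and 2.26.

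**Figure D3:**
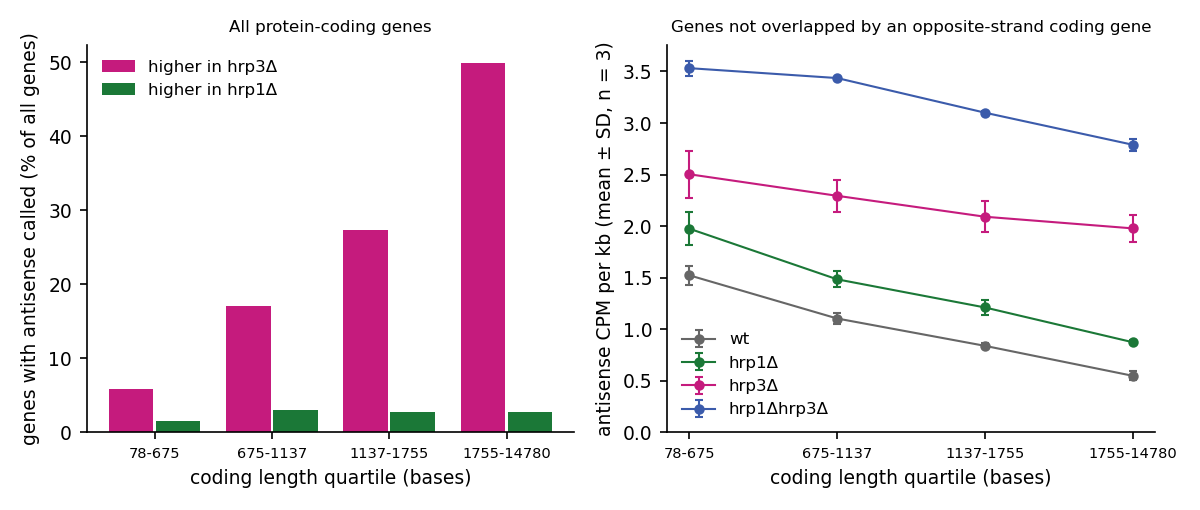
Antisense RNA by length of the gene, in 4 bins of protein-coding genes by coding length. Bars on the left give the percentage of all genes in a bin whose antisense entry was called higher in hrp3Δ (5.9 to 49.9) or higher in hrp1Δ (1.5 to 3.0). Points on the right give summed antisense CPM per kb in each group (mean and SD of 3 libraries). They cover genes not overlapped by a protein-coding gene on the opposite strand, where hrp3Δ lies above hrp1Δ in every bin.

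Other properties set the genes apart less. The share of genes with higher antisense RNA was 26.0%, 23.8% and 25.4% on chromosomes I, II and III, and 26.1% for genes without introns against 24.0% for genes with introns. By WT sense level, in 4 bins of TPM, it was 33.4% in the lowest, then 33.5% and 21.7%, and 11.8% in the highest, in which fewer antisense entries were tested (43.2% of genes against 72.5% in the lowest).

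A higher antisense level did not come with one direction in the mRNA. Of the 1283 genes, 1273 had a sense entry that was tested, of which 13.9% were higher and 12.3% lower in hrp3Δ, with a median log2 fold change of 0.01. Over all 3245 genes with both strands tested, 16.1% of sense entries were higher and 10.8% lower, with a median of 0.03. Where antisense RNA was over 4-fold higher, 549 sense entries were tested, with 11.3% higher, 17.1% lower and a median of -0.025. Of the 121 sense entries tested opposite an antisense feature lower in hrp3Δ, 32.2% were higher, 3.3% were lower and the median was 0.21. Of the 1273 genes, antisense RNA exceeded sense RNA at 77 in hrp3Δ and at 42 in hrp1Δ, a direction that the choice of these genes favours. Over all 3245 genes with both strands tested it did so at 191 and 186, and over the 121 of the other direction at 11 and 28. Genes whose sense entry had too few reads to be tested are not in these counts.

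Sense RNA of protein-coding genes differed in both directions and by less. Of 4937 genes tested, 715 (14.5%) were higher and 690 (14.0%) lower in hrp3Δ, with medians of 0.45 and -0.41 among those called and 0.004 over all tested. 97 of the 715 and 43 of the 690 had an absolute log2 fold change above 1, beside 183 (3.7%) of all tested. The groups did not overlap in 698 and 658, beside at least 1662 of all tested, counted as for antisense entries. The balance of higher and lower genes rests on the scaling: with TMM factors from all features, antisense included, the median sense change moved from 0.004 to -0.0966, and 433 genes were higher and 1163 lower, or 27.1% of the calls higher in place of 50.9%. Sense differences of about this size therefore depend on the scaling. Against WT, 773 genes of all tested were higher and 744 lower in hrp3Δ, and 253 higher and 208 lower in hrp1Δ. 430 of the 715 were higher than WT in hrp3Δ, and 20 were higher and 117 lower in hrp1Δ. Of the 690, 435 were lower than WT in hrp3Δ, and 101 were higher and 6 lower than WT in hrp1Δ.

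Genes higher in hrp3Δ than in hrp1Δ included meiotic genes and genes of metabolism or unknown role. spn5, a meiotic septin, was at 13.4, 11.1 and 18.1 in hrp3Δ against 2.01, 1.20 and 1.89 in hrp1Δ, with 1.89, 2.84 and 1.57 in WT and 14.8, 15.5 and 17.4 in the double mutant (3.05 ± 0.26, adjusted p = 7.84e-07). spo6, which encodes the regulatory subunit of a meiotic kinase, was at 11.3, 11.3 and 11.8 in hrp3Δ against 0.591, 1.498 and 2.43 in hrp1Δ, with 2.96, 3.17 and 2.81 in WT and 13.0, 9.41 and 12.5 in the double mutant (2.92 ± 0.31, adjusted p = 5.87e-06). meu7, an alpha-amylase gene, was at 14.98, 19.6 and 13.7 in hrp3Δ against 1.87, 2.68 and 2.35 in hrp1Δ, with 1.51, 1.68 and 3.29 in WT and 20.7, 13.8 and 14.8 in the double mutant (2.77 ± 0.29, adjusted p = 5.87e-06). In each, no hrp1Δ library exceeded the highest WT library and both strains without Hrp3 were high. SPBPB2B2.06c, a phosphatase gene, was at 108, 89.0 and 105 in hrp3Δ against 8.52, 11.8 and 8.49 in hrp1Δ, with 9.02, 24.3 and 23.5 in WT and 121, 104 and 154 in the double mutant (3.35 ± 0.27, adjusted p = 4.74e-07). The uncharacterized gene SPBC1271.08c was at 7.45, 3.93 and 5.29 in hrp1Δ and 43.0, 23.9 and 29.1 in hrp3Δ (2.52 ± 0.31, adjusted p = 2.29e-05). SPAC13C5.04, an amidotransferase gene, had no count after rounding in hrp1Δ and 5.61, 9.39 and 9.67 in hrp3Δ (adjusted p = 0.0051). Some of its hrp1Δ values were small fractions of a read, so no fold bound is set. SPAC13C5.04 was at 2.12, 0 and 1.65 in WT, and in the double mutant, which lacks Hrp3 too, 1 library was at 5.44 and the other two had no count after rounding. SPAC27E2.11c was at 12.1, 0 and 0 in hrp1Δ and 56.7, 39.3 and 24.0 in hrp3Δ (3.32 ± 0.89, adjusted p = 0.0105), with WT itself spread from 10.7 to 86.7. Only hrp1Δ replicate 1 had SPAC27E2.11c reads among the hrp1Δ libraries, the fitted change was 11.33 without it and 2.66 without hrp1Δ replicate 2, and DESeq2 did not call it (adjusted p = 0.136). caf5, a spermine transporter gene noticed after its values were seen, was high in hrp3Δ alone, at 144, 131 and 125 in hrp3Δ against 22.4, 19.1 and 28.4 in hrp1Δ, with 37.0, 35.9 and 26.7 in WT and 37.0, 33.7 and 38.05 in the double mutant (2.50 ± 0.12, adjusted p = 2.2e-09).

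cnp3 had opposite changes in the paralog deletions. This gene, whose product is the fission yeast counterpart of the kinetochore protein CENP-C, was at 26.1, 25.04 and 31.02 in hrp3Δ against 256, 264 and 277 in hrp1Δ, with 81.6, 113 and 119.7 in WT and 39.8, 67.4 and 42.2 in the double mutant (-3.30 ± 0.20, adjusted p = 2.47e-08). All hrp1Δ libraries were above and all hrp3Δ libraries below every WT library, and the double mutant was below WT as well. Relative to WT the log2 fold change was 1.24 ± 0.18, adjusted p = 0.000403 in hrp1Δ and -2.06 ± 0.20, adjusted p = 1.52e-06 in hrp3Δ. cnp3 antisense RNA went the other way, at 32.1, 26.9 and 30.7 in hrp3Δ against 14.9, 9.89 and 12.1 in hrp1Δ, with 23.2, 18.9 and 11.3 in WT and 34.5, 25.3 and 33.2 in the double mutant (1.26 ± 0.19, adjusted p = 0.000172). abp2, which encodes a protein that binds replication origin DNA and lies next to cnp3 in the divergent orientation, moved like it: its mRNA was at 15.5, 13.6 and 12.7 in hrp3Δ against 76.2, 60.5 and 48.8 in hrp1Δ, with 30.3, 37.3 and 35.7 in WT and 19.8, 23.4 and 13.7 in the double mutant (-2.16 ± 0.19, adjusted p = 9.78e-07). abp2 antisense RNA was at 0.118, 0 and 0 in hrp1Δ, a single read, and at 3.59, 3.56 and 5.82 in hrp3Δ (adjusted p = 2.89e-05).

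Further genes were high without Hrp1. SPAC4H3.08, a dehydrogenase gene, was at 9.03, 6.87 and 7.06 in hrp3Δ against 91.5, 66.7 and 60.7 in hrp1Δ, with 12.7, 24.1 and 16.1 in WT and 5.14, 7.75 and 8.40 in the double mutant (-3.27 ± 0.23, adjusted p = 9.33e-08). The transcription factor gene SPAC2H10.01 was at 10.4, 9.45 and 8.86 in hrp3Δ against 40.2, 27.5 and 33.2 in hrp1Δ, with 11.2, 12.8 and 10.4 in WT and 6.26, 6.78 and 5.21 in the double mutant (-1.82 ± 0.15, adjusted p = 6e-07). hsr1, another one, was at 35.8, 33.4 and 31.6 in hrp3Δ against 112, 96.9 and 97.0 in hrp1Δ, with 44.6, 60.3 and 47.3 in WT and 33.0, 40.0 and 36.3 in the double mutant (-1.62 ± 0.11, adjusted p = 8.54e-08). In SPAC4H3.08, SPAC2H10.01 and hsr1 every double mutant library was below every WT library, so the high level was seen where Hrp1 was missing and Hrp3 was present. SPAPB1A11.03, a lactate dehydrogenase gene overlapped by another coding gene, was at 4.17, 1.35 and 1.94 in hrp3Δ against 15.8, 10.8 and 6.74 in hrp1Δ, with 0.135, 1.20 and 0.45 in WT and 4.38, 5.40 and 7.10 in the double mutant (-2.17 ± 0.44, adjusted p = 0.0016, and -2.78 without hrp3Δ replicate 1), above WT in every library of each deletion. hsr1 was picked after its values were seen.

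Other called genes rested on uneven libraries. SPBC23G7.10c, a flavin oxidoreductase gene beside mat1, was at 0.463, 0.982 and 0.415 in hrp3Δ against 22.5, 25.5 and 1.35 in hrp1Δ, with 0.135, 0.437 and 0.787 in WT and 15.03, 17.6 and 21.4 in the double mutant (-4.73 ± 0.82, adjusted p = 0.000491), with 1 of the 3 hrp1Δ libraries near WT and the double mutant high throughout. Antisense RNA of its neighbour mag2, picked after its values were seen, was at 4.21, 6.43 and 2.58 in hrp1Δ and 0, 0.245 and 0 in hrp3Δ. ftm4 was at 29.3, 30.6 and 31.8 in hrp1Δ and at 8.90 in 1 hrp3Δ library, with less than 1 read in the other two (-3.34 ± 0.64, adjusted p = 0.00106). That library is hrp3Δ replicate 2, the fitted change of ftm4 was -10.98 without it and -2.72 without hrp3Δ replicate 1, and DESeq2 did not call it (adjusted p = 0.0632). Kallisto divides reads among entries that share sequence, which gives such fractions, and whether ftm4 shares reads with a like gene was not tested.

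**Figure D4:**
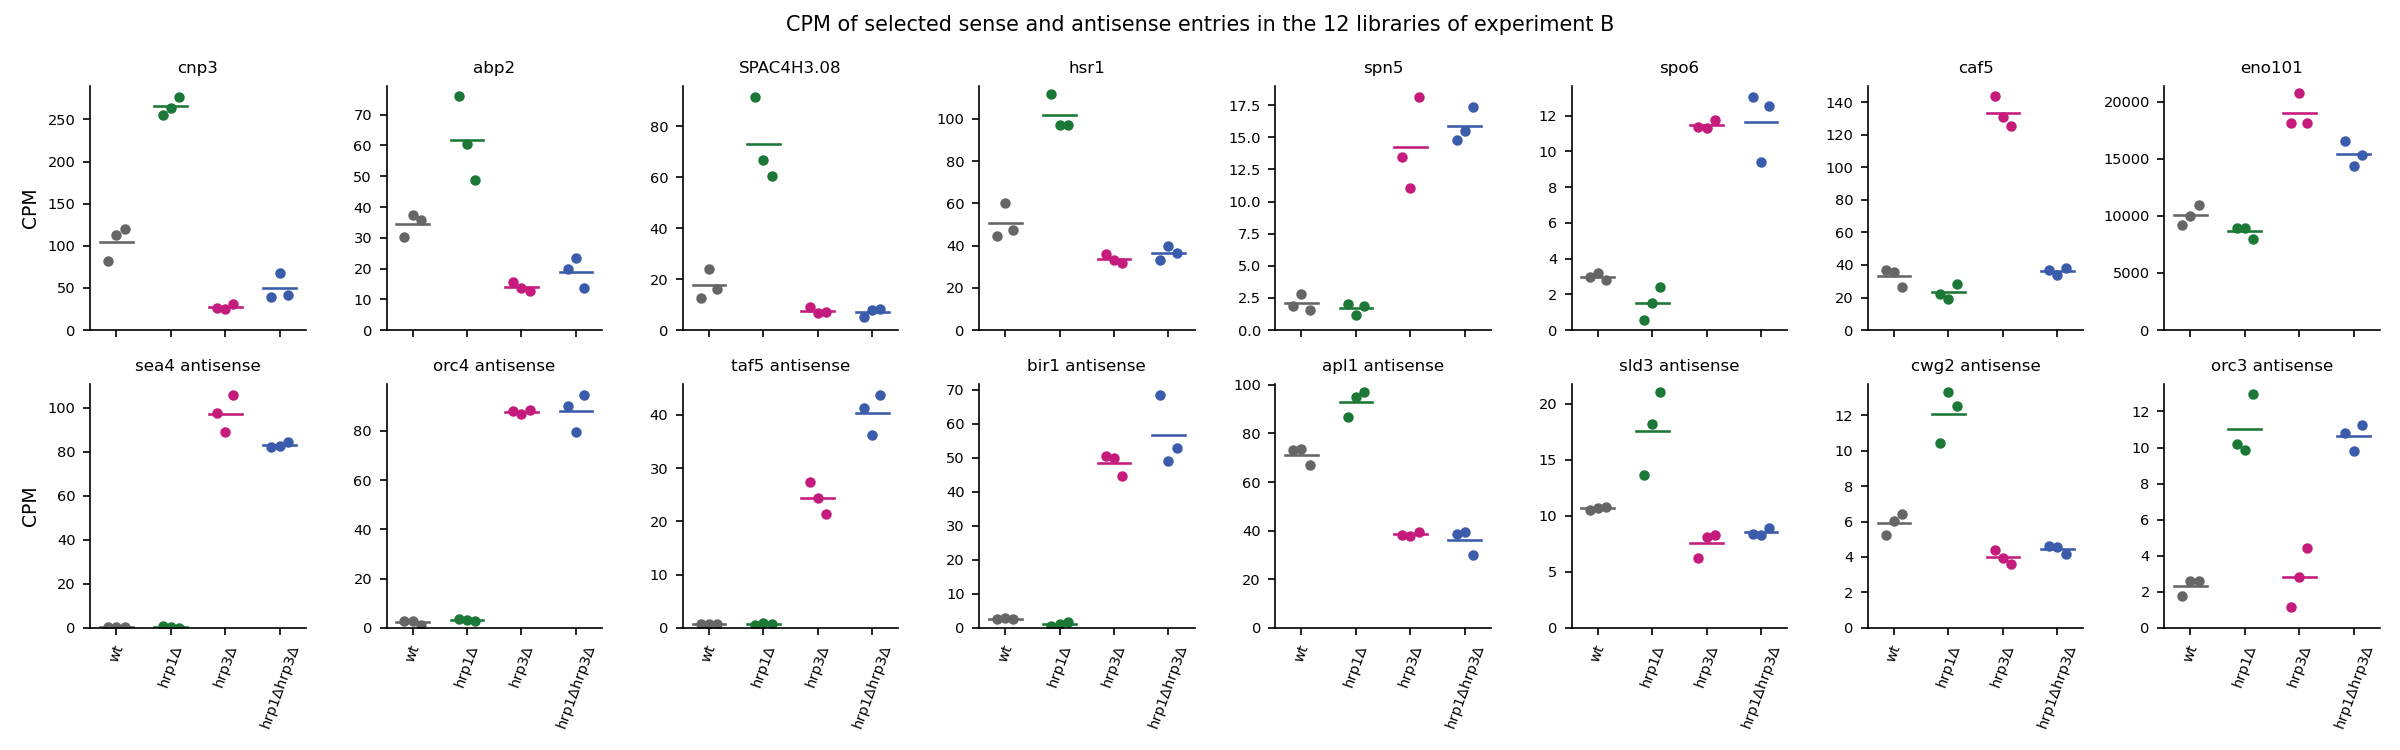
CPM on a linear axis from 0 of selected sense (upper) and antisense (lower) features in each library of experiment B (WT, hrp1Δ, hrp3Δ and hrp1Δhrp3Δ, 3 libraries each), with a line at the group mean. sea4, bir1 and orc4 antisense RNA is high in both strains without Hrp3, and cnp3 sense RNA lies between 256 and 277 in hrp1Δ and between 25.04 and 31.02 in hrp3Δ.

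Gene groups were next compared by how many members were called, beside 14.5% higher, 14.0% lower and a median of 0.004 over all sense entries tested. Histone genes were lower in hrp3Δ: 9 of 11 fell and none rose, with a median of -0.445. hht2, a histone H3 gene, was at 414, 380.3 and 395 in hrp3Δ against 668, 640.2 and 622 in hrp1Δ, with 621, 673 and 692 in WT and 388, 391 and 388 in the double mutant (-0.72 ± 0.08, adjusted p = 1.06e-05). The H4 gene hhf1 was at 994, 934 and 962 in hrp1Δ and 695, 639 and 664 in hrp3Δ (-0.55 ± 0.07, adjusted p = 3.32e-05). hrp1Δ overlapped with WT in both, and hrp3Δ lay below. Cytosolic ribosomal protein genes showed the same direction, with 93 of 138 lower, none higher and a median of -0.345, as in rpl102, at 212, 198 and 214 in hrp3Δ against 395, 479.5 and 507 in hrp1Δ, with 439, 432 and 419.9 in WT and 244, 272 and 235 in the double mutant (-1.17 ± 0.10, adjusted p = 5.85e-07), and in rpp202 (-0.90 ± 0.12, adjusted p = 7.54e-05). With TMM factors from all features 115 were lower and none higher. Histone and ribosomal protein genes have near-identical copies among which kallisto divides reads, so the value of a single copy is uncertain. Of 38 mitochondrial ribosomal protein genes tested, 4 were lower and none higher, with a median of -0.045, and 10 were lower with TMM factors from all features.

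Some genes of glucose metabolism were higher in hrp3Δ. Among 14 glycolysis genes, a list drawn up after some of their values were seen, 8 rose, none fell and 6 were not called, with a median of 0.37. The enolase gene eno101 was at 18140, 20720 and 18100 in hrp3Δ against 8974, 8942 and 7972 in hrp1Δ, with 9181, 10010 and 10920 in WT and 16530, 14400 and 15300 in the double mutant (1.12 ± 0.12, adjusted p = 5.83e-06). tdh1, a glyceraldehyde-3-phosphate dehydrogenase gene, was at 17810, 18820 and 16950 in hrp3Δ against 9352, 8356 and 7739 in hrp1Δ, with 8893, 8970 and 10400 in WT and 15700, 14800 and 15490 in the double mutant (1.05 ± 0.12, adjusted p = 9.76e-06). Both strains without Hrp3 were high, and no hrp1Δ library exceeded the highest WT library. fba1, pgk1 and gpm1, which encode aldolase, phosphoglycerate kinase and phosphoglycerate mutase, rose by less (0.61, 0.62 and 0.42). Of 10 glucose-repressed genes tested, 3 rose, none fell and 7 were not called, with a median of 0.45, and 1 was lower with TMM factors from all features. inv1, the secreted invertase, was at 10.8, 9.45 and 10.4 in hrp3Δ against 2.96, 2.60 and 2.56 in hrp1Δ, with 4.85, 4.04 and 2.47 in WT and 20.9, 16.9 and 18.8 in the double mutant (1.89 ± 0.21, adjusted p = 8.18e-06). The hexose transporter gene ght5 was at 8.67, 10.2 and 9.90 in hrp1Δ and 21.1, 23.3 and 23.6 in hrp3Δ (1.22 ± 0.14, adjusted p = 1.08e-05).

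Phosphate and iron genes moved apart. Of 6 genes of phosphate uptake, 3 rose in hrp3Δ and none fell, with a median of 0.63, and 1 was lower with TMM factors from all features. The acid phosphatase gene pho1 was at 130.3, 100.2 and 134 in hrp3Δ against 44.3, 27.6 and 21.8 in hrp1Δ, with 48.8, 49.5 and 61.0 in WT and 104, 83.8 and 137 in the double mutant (1.94 ± 0.23, adjusted p = 1.46e-05). The phosphate transporter gene pho84 was at 206, 246 and 214 in hrp3Δ against 82.0, 68.6 and 67.8 in hrp1Δ, with 83.9, 82.1 and 95.0 in WT and 109.7, 100.5 and 114 in the double mutant (1.59 ± 0.11, adjusted p = 1.23e-07), and there the double mutant was closer to WT than hrp3Δ was. tgp1, a glycerophosphodiester transporter gene, was at 32.9, 28.2 and 33.9 in hrp3Δ against 13.1, 11.6 and 16.3 in hrp1Δ, with 13.1, 9.62 and 9.66 in WT and 52.2, 48.9 and 60.1 in the double mutant (1.20 ± 0.14, adjusted p = 1.89e-05). Of 12 iron genes, 6 were lower in hrp3Δ and 1 was higher, with a median of -0.48. fio1, the copper oxidase of iron uptake, was at 17.98, 17.5 and 17.4 in hrp1Δ and 5.56, 5.03 and 4.98 in hrp3Δ (-1.78 ± 0.42, adjusted p = 0.0049). fip1, its permease partner, was at 65.2, 57.8 and 58.2 in hrp1Δ and 22.7, 23.9 and 19.4 in hrp3Δ (-1.47 ± 0.36, adjusted p = 0.00556). WT itself was uneven in fio1, at 2.96, 15.1 and 3.93, and in fip1, at 15.1, 53.2 and 24.1, and hrp3Δ overlapped with it. pcl1, an iron transporter gene, was at 106, 106 and 121 in hrp3Δ against 178, 174 and 188 in hrp1Δ, with 209.8, 197 and 195 in WT and 101, 141 and 132 in the double mutant (-0.71 ± 0.11, adjusted p = 0.00021). str1, a siderophore transporter gene, was at 46.2, 41.4 and 55.1 in hrp3Δ, 119, 140.3 and 164 in hrp1Δ and 91.2, 193 and 90.5 in WT (-1.59 ± 0.34, adjusted p = 0.00218). In pcl1 and str1 every hrp3Δ library was below every WT library.

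Stress genes held members of both directions. Of 11 heat shock genes, 5 rose and 1 fell, and of 17 stress genes, 5 rose and 3 fell, counts that became 3 and 3, and 4 and 5, with TMM factors from all features. hsp16, a small heat shock protein gene, was at 747, 571 and 618 in hrp3Δ against 302, 102 and 139 in hrp1Δ, with 165, 190.5 and 83.6 in WT and 263, 264 and 275 in the double mutant (1.82 ± 0.30, adjusted p = 0.000332). ssa1, an Hsp70 gene, was at 593, 505 and 588 in hrp3Δ against 274, 138 and 196 in hrp1Δ, with 238, 279 and 238 in WT and 427, 366 and 473 in the double mutant (1.46 ± 0.17, adjusted p = 1.47e-05). In both, hrp3Δ was above every library of the other groups. sks2, a ribosome-associated Hsp70 gene, fell (-0.58 ± 0.10, adjusted p = 0.000485), as did pcr1, a stress and meiosis transcription factor gene (-0.76 ± 0.14, adjusted p = 0.000641).

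Meiotic genes showed no common direction. Of 92 mug and meu genes tested, 9 rose and 15 fell in hrp3Δ, with a median of -0.02. Among 18 early meiotic genes tested, 4 rose and 1 fell, with a median of 0.42. mfr1, an activator of the anaphase-promoting complex in meiosis, was at 0.473, 0.0999 and 0.404 in hrp1Δ and 1.74, 1.596 and 1.11 in hrp3Δ (2.17 ± 0.57, adjusted p = 0.00917), a call that was lost without hrp1Δ replicate 2 (adjusted p = 0.0501), whereas the RNA-binding protein gene mei2 was the one that fell, at 3.24, 2.82 and 2.91 in hrp3Δ against 7.21, 8.09 and 7.95 in hrp1Δ, with 2.15, 4.48 and 5.51 in WT and 6.51, 5.95 and 5.56 in the double mutant (-1.39 ± 0.29, adjusted p = 0.00215). meu14, a forespore membrane gene, was also higher without Hrp1 alone than without Hrp3 alone, at 5.53, 4.29 and 6.08 in hrp3Δ against 20.1, 14.9 and 14.2 in hrp1Δ, with 2.40, 2.27 and 1.11 in WT and 20.1, 19.5 and 23.1 in the double mutant (-1.65 ± 0.20, adjusted p = 2.69e-05). By contrast, spn6, a meiotic septin, was high in each deletion, at 21.2, 21.1 and 24.1 in hrp3Δ against 16.9, 11.98 and 14.7 in hrp1Δ, with 0.404, 0.984 and 0.112 in WT and 33.1, 27.7 and 32.4 in the double mutant (0.59 ± 0.18, adjusted p = 0.0196), and its call was lost without hrp1Δ replicate 2 (adjusted p = 0.0948) or without hrp3Δ replicate 3 (0.0748). In a table of meiotic genes that the study chose as raised on such samples, which is not independent evidence of direction, 20 of 51 tested were higher and 4 lower in hrp3Δ than in hrp1Δ, with a median of 0.49.

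Genes nested in a convergent neighbour were examined because the study followed such pairs. Of 189 nested genes tested, 39 were higher and 27 lower in hrp3Δ, and of 189 hosts, 37 were higher and 13 lower, but TMM factors from all features turned both balances, to 28 and 45, and to 19 and 32. In the study's own pairs, spo6 differed as given above while lam2, its partner, was at 18.7, 12.1 and 11.5 in hrp1Δ and 18.1, 22.2 and 17.9 in hrp3Δ (0.44 ± 0.17, adjusted p = 0.0541, and adjusted p = 0.00345 without hrp1Δ replicate 1). meu27 was at 8.57, 10.3 and 7.62 in hrp3Δ against 1.30, 1.70 and 1.89 in hrp1Δ, with 0.673, 0.546 and 1.12 in WT and 19.6, 12.3 and 14.6 in the double mutant (2.41 ± 0.28, adjusted p = 1.56e-05). chk1, a checkpoint kinase gene paired with it, was at 5.91, 6.09 and 4.04 in hrp1Δ and 5.67, 4.05 and 7.48 in hrp3Δ (0.06 ± 0.25, adjusted p = 0.879). tfg2, the TFIIF subunit gene paired with mfr1, was at 59.1, 58.7 and 61.7 in hrp1Δ and 65.2, 61.1 and 63.4 in hrp3Δ (0.06 ± 0.07, adjusted p = 0.536).

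Groups of chromatin genes differed in how many members were called on each strand, beside 38.8% higher and 3.81% lower over all antisense entries. Gene length was not matched here, and in the longest of 4 length bins 59.6% of tested antisense entries were higher. Of 12 remodeler genes other than hrp1 and hrp3, 2 rose in sense with a median of 0.11, and 10 of 12 rose in antisense with a median of 2.05, beside 0.73 over all antisense entries. The sense genes were mot1, a remover of TATA-binding protein (0.39 ± 0.09, adjusted p = 0.00345), and fft3 (0.21 ± 0.06, adjusted p = 0.0165), whose call was lost without hrp1Δ replicate 3, hrp3Δ replicate 2 or hrp3Δ replicate 3, and with TMM factors from all features 1 gene rose and 1 fell. Elongation and histone chaperone genes had 2 rises and 1 fall in 21 in sense, which became 1 and 2 with TMM factors from all features, and 9 rises and 2 falls in 16 in antisense (median 1.19). Genes of heterochromatin and RNAi had 1 fall in 17 in sense, and 10 rises and 2 falls in 17 in antisense (median 0.95). Of 20 kinetochore and CENP-A genes, 5 fell and none rose in sense, with a median of -0.01. Besides cnp3, those that fell included nnf1 (-0.72), mis20 (-0.72) and mis17 (-0.42), and 3 of 18 rose in antisense.

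**Figure D5:**
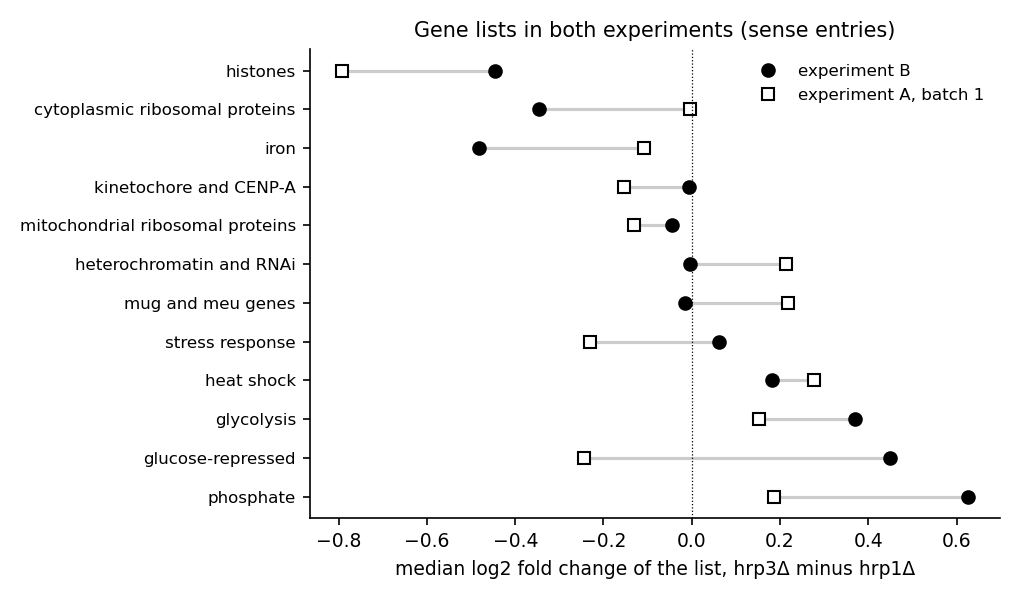
Median log2 fold change of the sense entries of each gene group, hrp3Δ minus hrp1Δ, in experiment B (filled circles) and in experiment A-b1 (open squares). Histone genes have medians of -0.445 and -0.793, ribosomal protein genes -0.345 and -0.004, and glucose-repressed genes 0.45 and -0.24, which differ in sign; TMM factors from all features give a median of all sense entries of -0.0966 in experiment B.

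Annotated non-coding RNAs fell between the sense and antisense entries of coding genes. Of 1193 tested, 242 (20.3%) were higher and 155 (13.0%) lower in hrp3Δ, with a median of 0.12. The 242 had medians of 4.04 CPM in WT, 3.91 in hrp1Δ, 11.2 in hrp3Δ and 10.8 in hrp1Δhrp3Δ. 77.3% of them overlap a protein-coding gene on the opposite strand, against 64.0% of all tested. SPNCRNA.758 had no count in hrp1Δ and was at 16.7, 5.91 and 16.6 in hrp3Δ, at least 113-fold higher, though the double mutant ranged from 0 to 9.75. SPNCRNA.1674 had 1 count in all in hrp3Δ and was at 10.2, 13.9 and 27.5 in hrp1Δ, 7.79, 8.71 and 10.6 in WT and 3.33, 4.49 and 3.05 in the double mutant (adjusted p = 3.77e-07).

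The same contrast in experiment A-b1 gave a like picture on the antisense strand. These libraries held 470200 to 18150000 counts, with the shallowest among those labelled hrp3Δ, and the coefficient of variation was 0.184. The deleted genes were less clear there: hrp3 sense RNA was at 25.1, 21.2 and 38.3 in the libraries labelled hrp3Δ and 22.9, 25.7 and 21.3 in WT, and hrp1 at 12.5, 16.5 and 14.9 in hrp1Δ and 19.8, 19.3 and 24.6 in WT, so hrp3 was not below WT in the libraries labelled hrp3Δ. The antisense share was higher in the libraries labelled hrp3Δ by 1.21 points, a ratio of 2.01 (exact two-sided permutation p = 0.1, the smallest possible). Of 1775 antisense entries tested there, 935 (52.7%) were higher and 29 (1.63%) lower, and of 4870 sense entries, 499 (10.2%) were higher and 526 (10.8%) lower. Leaving out hrp1Δ replicate 1, hrp1Δ replicate 2 or the library labelled hrp3Δ replicate 1 took the 499 to 315, 317 and 307, and leaving out the library labelled hrp3Δ replicate 2 took the 29 to 18.

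The 2 experiments share no library in this contrast, and their strain codes are the same. Of the 1283 antisense features higher in hrp3Δ in experiment B, 798 were tested in experiment A-b1, in which 683 (85.6%) were called higher and none lower, beside 53.5% called higher among the 1707 tested in both. Of the 126 lower, 89 were tested there, with 13 (14.6%) called lower and 11 (12.4%) higher, beside 1.5% lower among the 1707. Of the 715 sense genes, 702 were tested there, with 221 (31.5%) higher and 20 lower, and of the 690, 687 were tested, with 191 (27.8%) lower and 11 higher, beside 10.3% higher and 10.7% lower among the 4847 tested in both. Across genes, the fold changes of both experiments had a Pearson correlation of 0.68 and a Spearman correlation of 0.74 over 1707 antisense entries, and 0.49 and 0.41 over 4847 sense entries, a description across genes, which are not independent replicates.

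Named features fell on both sides of this repeat. sea4, bir1, orc4, cnt6 and utp4 antisense RNA was called higher there too, at log2 fold changes of 5.53, 4.75, 5.29, 5.13 and, for utp4, with an adjusted p of 0.000285. Antisense RNA of omh1 had too few counts to be tested there, at 1.21, 0.697 and 0 in the libraries labelled hrp3Δ. That of mbx2 was at 0 in every WT, hrp1Δ and hrp3Δ library of A-b1. SPAC13C5.04 had counts in 1 of the 3 libraries labelled hrp3Δ. orc3 and pos5 antisense RNA was again lower (-1.75 and -1.68), while sld3, cwg2, apl1 and rec15 were not called. SPAC4H3.08 was lower in the libraries labelled hrp3Δ (-4.21 ± 0.26, adjusted p = 9.61e-12, adjusted p of the difference between experiments = 0.0285), but there WT was as high as hrp1Δ, at 349.9, 262 and 288 against 288, 304 and 306, so every hrp1Δ library was above every WT library for SPAC4H3.08 in experiment B but not in A-b1. cnp3 was also lower, by less (-0.98 ± 0.24, adjusted p = 0.00311, adjusted p of the difference between experiments = 2.27e-06), at 25.2, 24.4 and 28.1 in hrp1Δ, 14.4, 9.75 and 14.9 in those labelled hrp3Δ and 23.6, 16.9 and 18.1 in WT. eno101 and tdh1, 2 of the 14 glycolysis genes, were higher in both experiments (0.91 and 1.20 in A-b1), where the other 12 were not called, and 7 of 11 histone genes were lower, with a median of -0.79.

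The difference between the experiments was tested as an interaction of strain and experiment. For sense entries (4944 tested), the signed hrp3Δ minus hrp1Δ difference was higher in B than in A-b1 for 388 (7.85%) and lower for 431 (8.72%). For antisense entries (3159 tested) it was higher for 21 (0.665%) and lower for 290 (9.18%). The sense balance turned with the scaling, to 819 and 81 with TMM factors from all features. Ribosomal protein genes were among those that changed, with 1 of 138 lower in A-b1 against 93 in B and 25 with a lower difference in B by the interaction test. Nutrient and stress genes were among them as well. pho84 had a log2 fold change of -0.23 in A-b1 (interaction adjusted p = 1.49e-05), pho1 -0.28 (9.44e-05), inv1 0.04 (0.000115), hsp16 -0.09 (0.00319) and fip1 0.75 (7.99e-05). inv1 was at 1049, 1166 and 1510 in WT of A-b1 against 4.85, 4.04 and 2.47 in WT of B, so inv1 differed between the experiments in WT as well, and the part of this in the interaction was not tested.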

How the data were processed

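The authors extracted RNA with hot acid phenol, selected polyadenylated RNA, made strand-specific libraries (NEBNext Ultra II Directional) and sequenced them in pairs. They quantified reads with kallisto against Ensembl release 55 transcripts of ASM294v2 and their reverse complements (kallisto version not given in the sources used here), and deposited 1 table per library with estimated counts and TPM for 13994 entries, 5112 of them protein-coding sense entries that cover the coding sequence. Of the 72 tables, those of experiment B (12) and experiment A batch 1 (30) were used.

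The deposited estimated counts, which were not scaled between libraries, were rounded to integers before tests with edgeR 4.0.16 (R 4.3.3) by quasi-likelihood F tests. Scaling factors were TMM factors from protein-coding sense entries, features passed filterByExpr at a count minimum of 10 and a total of 15, all groups of an experiment entered the fit, and p-values were adjusted by the Benjamini-Hochberg method over all features (threshold 0.05). The experiments were compared in a joint fit with an interaction of strain and experiment. TPM as deposited served for the WT sense level and as an alternative for the antisense share. That share was compared by exact permutation. Named features were the deleted genes with their 2 nearest neighbours on each side, the genes the study followed, the 7 largest differences in each of 4 classes with at least 8 CPM and no overlap between groups, the 3 largest in non-coding RNAs, and up to 4 called members of each gene list. Members and lists were chosen with earlier results of these data known, and the features named as seen first were added later. The edgeR steps were tested on simulated data. Alternatives were DESeq2 1.42.0, other scaling, filters and samples, and leaving out each library. Floors cover counting error only, whereas standard errors come from the edgeR fit and SDs from the spread between libraries. Coordinates and sequences are not used here.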

Additional observations from a re-analysis of the deposited data

Results flagged for a closer look

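The hrp3Δ minus hrp1Δ difference itself was not the same in experiments B and A-b1 for part of the features, by an interaction test across the experiments (edgeR, adjusted p under 0.05). Among sense entries the signed difference was higher in experiment B for 388 and lower for 431, and among antisense entries higher for 21 and lower for 290. Over the antisense entries tested in both, the median difference was 0.695 in B and 1.37 in A-b1. Against WT, over all 3306 antisense entries tested in B, the median change was 1.28 in hrp3Δ and 0.454 in hrp1Δ. In A-b1, where fewer entries were tested, it was 1.57 and 0.15, so these medians are not over one shared set of entries.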

How the results depend on the processing

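Scaling moved the sense counts. With TMM factors from all features, 433 sense genes were higher and 1163 lower in hrp3Δ. DESeq2, which changed the test and took its size factors from all features, gave 428 and 1022, and edgeR with DESeq2 size factors from coding sense entries gave 700 and 706. With TMM factors from all features the interaction counts became 819 higher and 81 lower in B for sense entries and 36 and 163 for antisense entries. A fold threshold (absolute log2 change above 1) left 97 sense genes higher and 43 lower, 73 antisense features lower, and 158 non-coding RNAs higher and 79 lower. Genes with no annotated gene on the other strand gave 145 antisense features higher and 25 lower, and an antisense share difference of 0.0870 points, and shares of TPM gave 0.369 points. Leaving out each library gave 497 to 696 sense genes higher, 502 to 751 lower, 1013 to 1141 antisense features higher, 92 to 119 lower, 195 to 227 non-coding RNAs higher, 114 to 163 lower, and share differences of 0.631 to 0.758 points. In experiment A-b1 the ranges were 307 to 423 sense genes higher, 363 to 468 lower, 764 to 1074 antisense features higher and 18 to 34 lower. Same-numbered libraries were not paired by the labels, and their deviations correlated at 0.038 to 0.248 between hrp1Δ and hrp3Δ over 3637 features, so the replicate block (655 and 643 sense genes, 1213 and 116 antisense features, 232 and 149 non-coding RNAs higher and lower, and a share difference of 0.692) is only another fit. Of 116 named features that were called, 10 lost the call when some single library was left out: fft3, hip3, mde3, mfr1, mrpl10, mrpl23, mrpl39, rec27, spn6 and stc1. No feature among the 116 changed direction under these alternatives, and the fold changes of chk1, tfg2 and fet5 (sense and antisense), none called, changed sign under some. Depth limits antisense entries, since 1806 of 5112 were not tested.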
